A study of Mus musculus with 9 samples.

Results

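The genes described here mark the second and later neurons of the retina, and they were followed in RNA from the anterior lens capsule of the mouse. Their 10 symbols were looked up in the deposited table of 17527 genes, and all 10 were present: Grm6, Trpm1, Gng13, Pcp2, Prkca and Cabp5 of bipolar cells, Calb1 and Calb2 of horizontal and amacrine cells, and Nefl and Sncg of ganglion cells. The study compared 3 libraries from young control mice, 3 from old control mice (called aged control below, after their titles AGED) and 3 from old mice given EGCG (epigallocatechin gallate, a catechin of green tea), to ask about age-related cataract. The tissue of all 9 libraries was the anterior lens capsule, a membrane that covers the lens and carries its epithelial cells. Strain, sex, ages, dose, route and duration of EGCG, any vehicle given to the control mice, and the number of animals per library are not stated in the labels or the design text. The 3 libraries of each group are not said to be from different mice, and a p-value here reflects the spread among libraries, which may be technical.

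As background, bipolar cells carry signals from photoreceptors to the inner retina. In the dark, photoreceptors release glutamate; on ON bipolar cells it binds the metabotropic receptor mGluR6, which acts through a Go protein to hold the cation channel TRPM1 shut, and light lifts this block. Horizontal cells feed back on photoreceptor terminals, amacrine cells shape the signal that bipolar cells pass on, and ganglion cells send it to the brain through axons filled with neurofilaments. A lens capsule holds none of these neurons, and lens cells are known for crystallins and membrane channels.

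The libraries held 13184169 to 16528179 counts, so that 3 counts, the limit used for a gene at 0, equalled 0.183 to 0.232 CPM (counts scaled to a common library size with the TMM factors of edgeR). Every member had at least 9 counts in each library. Lens identity was plain from the crystallin Cryaa, which held 7.95% to 11.7% of all counts. Summed lens epithelium markers (10 genes) measured 2093 to 2102 CPM in young control, 3040.3 to 3199.5 CPM in aged control and 2931 to 2963 CPM in EGCG libraries. The libraries also held transcripts of photoreceptors: 22 rod genes, among them Gnat1 and Sag, summed to 27053 to 27251 CPM in young control, 1544 to 1611 CPM in aged control and 11735 to 11922 CPM in EGCG libraries. Endothelial markers (8 genes) summed to 131 to 132, 40.5 to 42.7 and 34.7 to 36.9 CPM, and red blood cell markers (6 genes in the table) to 205 to 215, 6.33 to 7.98 and 20.1 to 25.5 CPM, in the same order of groups. These levels also differed between the groups, and their part in the results below was not tested. In bulk RNA, fewer cells of a type and less RNA per cell cannot be told apart.

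Promoter sequences are shown for 4 bipolar cell genes that differ in how they moved below, since these windows are where shared retinal regulators could act. Each window runs from 250 bases before to 50 bases after an annotated start (RefSeq, GRCm38.p6), is written 5′ to 3′ on the gene's strand, and has matches on either strand in capitals to TAATCC (the site of OTX2 and CRX), TAATTA (a homeodomain site), CACGTG and CATGTG (E-boxes bound by MITF among others) or TATAAA.
Grm6 start 1 (chr11:50850435-50850734, plus strand): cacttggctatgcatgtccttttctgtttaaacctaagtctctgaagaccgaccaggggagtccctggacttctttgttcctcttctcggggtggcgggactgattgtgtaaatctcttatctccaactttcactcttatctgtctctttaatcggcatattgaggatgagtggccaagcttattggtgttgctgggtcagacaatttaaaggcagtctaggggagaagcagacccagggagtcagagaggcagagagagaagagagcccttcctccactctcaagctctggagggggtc
Trpm1 start 1 (chr7:64153585-64153884, plus strand): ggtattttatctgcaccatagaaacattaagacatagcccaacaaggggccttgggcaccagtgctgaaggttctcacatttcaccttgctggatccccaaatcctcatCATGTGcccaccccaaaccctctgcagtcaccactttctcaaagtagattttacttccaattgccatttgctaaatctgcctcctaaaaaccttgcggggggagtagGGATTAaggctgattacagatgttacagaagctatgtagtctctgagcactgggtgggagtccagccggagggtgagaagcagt
Trpm1 start 2 (chr7:64185209-64185508, plus strand): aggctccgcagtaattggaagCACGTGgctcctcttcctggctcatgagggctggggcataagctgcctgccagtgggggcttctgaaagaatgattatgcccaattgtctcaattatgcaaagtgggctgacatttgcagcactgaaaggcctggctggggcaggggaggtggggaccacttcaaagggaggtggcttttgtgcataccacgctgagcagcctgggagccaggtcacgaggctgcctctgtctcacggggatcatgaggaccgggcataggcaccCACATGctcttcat
Cabp5 start 1 (chr7:13397905-13398204, plus strand): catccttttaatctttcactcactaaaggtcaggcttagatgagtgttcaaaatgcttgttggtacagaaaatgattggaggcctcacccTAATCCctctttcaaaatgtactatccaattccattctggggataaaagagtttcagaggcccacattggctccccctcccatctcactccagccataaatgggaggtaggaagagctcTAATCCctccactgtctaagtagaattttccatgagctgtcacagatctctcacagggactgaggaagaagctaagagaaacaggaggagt
Pcp2 start 3 (chr8:3625233-3625532, minus strand): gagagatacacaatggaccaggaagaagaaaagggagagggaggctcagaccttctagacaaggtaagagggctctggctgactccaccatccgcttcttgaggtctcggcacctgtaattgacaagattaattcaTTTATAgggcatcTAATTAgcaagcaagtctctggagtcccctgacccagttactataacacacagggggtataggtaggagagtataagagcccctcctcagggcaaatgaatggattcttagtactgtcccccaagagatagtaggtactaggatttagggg

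Cabp5 held TAATCC 160 and 41 bases before its start, and Trpm1 held it on the opposite strand 34 bases before its first start. The first Trpm1 window also had CATGTG 141 bases before the start, and the second had CACGTG 229 bases before and CATGTG on the opposite strand 36 bases after its start. Pcp2 had TAATTA 101 bases before the start shown, with TATAAA on the opposite strand 114 bases before it. Of the 3 other Pcp2 windows, which are not printed, that of start 4 held CATGTG 91 bases before it and those of starts 1 and 2 held none of the motifs. The window of Grm6 held none of the 5 motifs, nor did those of Gng13, Prkca and Sncg. Of 32851 promoter windows of this length, 7.06% held TAATCC, 5.29% TAATTA, 7.15% CACGTG, 14.2% CATGTG and 13.6% TATAAA. RefSeq windows were matched for 7 of the 10 genes (12 windows), and those of Calb1, Calb2 and Nefl are named only. A match describes letters in a window, the counts do not show which start was used, and absence of a match says nothing of a factor elsewhere.

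All 10 genes were lower in aged control than in young control libraries, with no overlap between the groups for any of them. By edgeR's quasi-likelihood test, with p-values adjusted by Benjamini-Hochberg over 13711 genes tested, 10 of 10 fell, and their median log2 fold change was -3.51. The background was wide: 69.2% of all tested genes were called in this comparison, 33.8% as lower, 35.3% had aged libraries all below the young ones, and the median over all tested genes was 0.02. In EGCG libraries 9 of the 10 were higher than in aged control, with a median log2 fold change of 1.97, and Trpm1 was not called. There 24.1% of tested genes were called, 13.8% as higher, and 17.8% had EGCG libraries all above the aged ones, as all 10 members had. Against young control, 9 of 10 were lower in EGCG libraries without overlap (median -0.84), and Sncg was not called, while 63.6% of all tested genes were called, 31.4% as lower, and 34.4% were lower without overlap. Scaling by library size only or to lens fibre markers moved the whole table. Each brought the count for EGCG against aged control from 9 to 10 members, with Trpm1 called. DESeq2 median-ratio size factors in the edgeR test left Trpm1 not called, with medians of all tested genes of -0.02 with age and -0.008 for EGCG against aged control. With library size only the median of all tested genes was -0.30 with age and 0.12 for EGCG against aged control, and on the lens fibre scale -0.22 and 0.24. Of all tested genes, library size only called 21.4% higher and 47% lower with age, and 22.5% higher and 4.46% lower for EGCG against aged control. The lens fibre scale called 24.8% higher and 43.4% lower with age, and 39.1% higher and 2.66% lower for EGCG against aged control. The comparisons share libraries pair by pair, so their directions are not independent of each other.

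**Figure D1:**
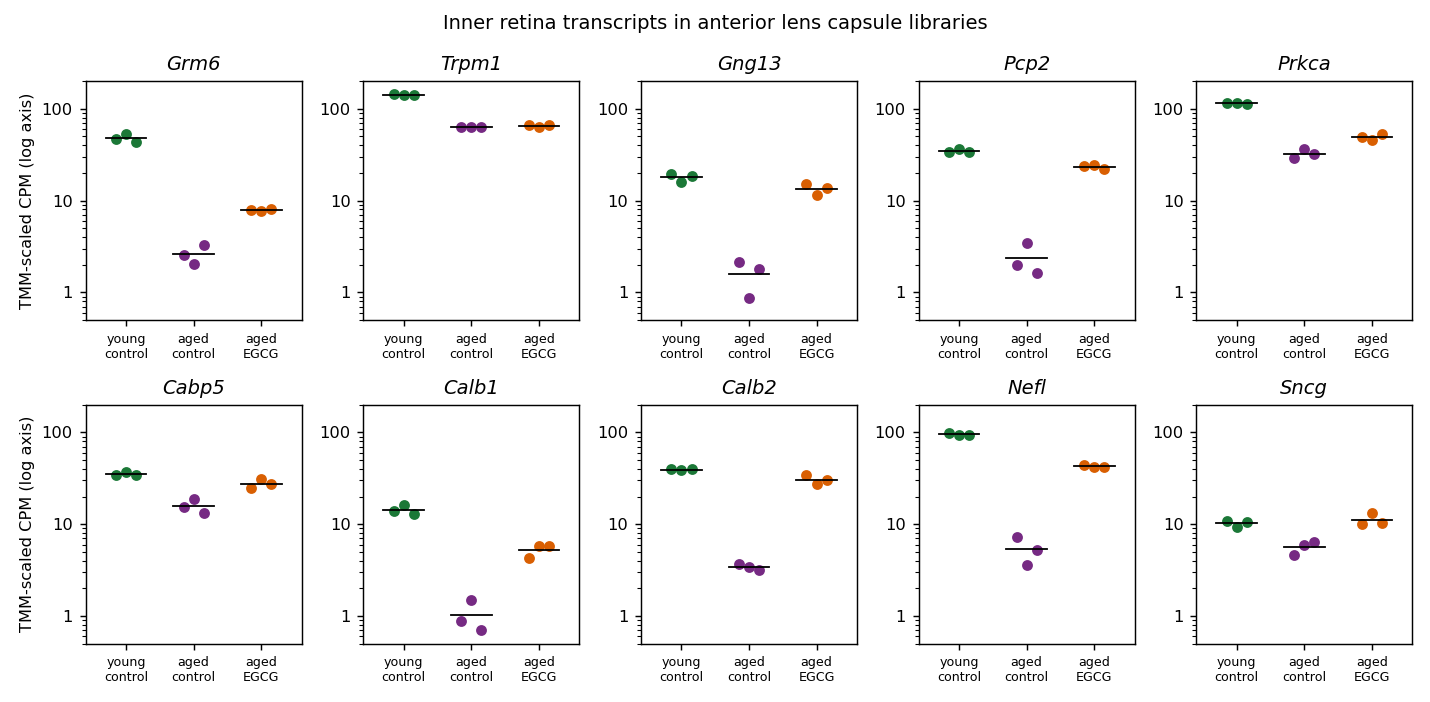
Level of each of the 10 genes in each of the 9 libraries (TMM-scaled CPM, log axis), with a panel per gene, a point per library and a bar at the mean of 3 libraries. The aged control points lie lowest in every panel; the EGCG points of Trpm1 sit close to them, while those of Sncg overlap the young control points.

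The receptor gene Grm6 was among those that fell most with age, together with Nefl and Pcp2. Grm6 (mGluR6, the glutamate receptor of ON bipolar cells, chromosome 11, 50850685 to 50866208, plus strand) measured 46.6, 53.5 and 43.4 CPM in the young control libraries, 2.54, 2.02 and 3.25 CPM in the aged control libraries and 7.98, 7.61 and 8.13 CPM in the EGCG libraries. The young libraries were high, the aged ones near the bottom of the measured range and the EGCG ones only a little above them, with no overlap between any groups. Means were 47.8 ± 5.13, 2.61 ± 0.617 and 7.90 ± 0.268 CPM (SD, n = 3 libraries), which is an 18.5-fold fall with age (log2 fold change -4.21, SE 0.154, adjusted p = 6.24e-28). EGCG libraries were 3.05-fold above aged control (log2 fold change 1.61, SE 0.181, adjusted p = 5.43e-10) and still 6.05-fold below young control (log2 fold change -2.60, SE 0.130, adjusted p = 2.94e-22). Grm6 thus stood at 5.45% of its young level in aged control and 16.5% in EGCG libraries.

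The channel gene of the same cascade behaved otherwise. Trpm1 (the cation channel that mGluR6 controls, also known from pigment cells as melastatin, chromosome 7, 64153835 to 64269775, plus strand) measured 143, 142 and 142 CPM in the young control libraries, 63.0, 62.8 and 62.6 CPM in the aged control libraries and 65.9, 63.6 and 66.4 CPM in the EGCG libraries. Young libraries were far above the others, and aged and EGCG libraries formed narrow neighbouring groups that did not overlap. Trpm1 fell 2.26-fold with age (log2 fold change -1.18, SE 0.0608, adjusted p = 4.07e-22). The difference between EGCG and aged control was not called (log2 fold change 0.06, SE 0.0636, adjusted p = 0.594, 95% interval -0.0728 to 0.183), a gap that became a call under other scalings: 0.18 (adjusted p = 0.0311) with library size only and 0.30 (adjusted p = 0.00033) when scaled to lens fibre markers, by the same edgeR test. EGCG libraries lay 2.18-fold below young control (adjusted p = 4.45e-21). Pigment cell and retinal pigment epithelium markers, 14 genes with none at 0 in all libraries, summed to 359.8 to 382 CPM in young, 305 to 319.7 CPM in aged and 241 to 243 CPM in EGCG libraries.

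Among those pigment genes, 7 of 13 tested fell with age and 4 rose, against 33.8% and 35.4% of all tested genes. Only 2 rose when library size alone or the lens fibre markers set the scale, where Mitf and Oca2 were not called. Dct and Tyrp1, enzymes of melanin synthesis, rose 1.44-fold and 1.60-fold, whereas Rpe65 and Rgr, visual cycle genes of the pigment epithelium, fell 9.09-fold and 9.08-fold. Between EGCG and aged control 4 rose and 3 fell, against 13.8% and 10.3% of all tested genes. Dct was 1.67-fold and Tyrp1 1.56-fold lower, and Rgr was 2.95-fold higher. The list's median log2 fold change there, -0.19, turned to 0.06 on the lens fibre scale. What share of the Trpm1 counts pigment cells gave was not tested.

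Gng13 and Pcp2, which act on the G protein below the receptor, were low in aged control and much higher with EGCG. Gng13, a G protein gamma subunit of the ON bipolar Go protein (chromosome 17, 25717171 to 25719406, plus strand), measured 19.7, 16.1 and 18.5 CPM in the young control libraries, 2.13, 0.876 and 1.78 CPM in the aged control libraries and 15.2, 11.5 and 13.6 CPM in the EGCG libraries. Aged libraries were lowest without overlap, and every EGCG library lay below every young one. Gng13 fell 11.3-fold with age (log2 fold change -3.50, SE 0.215, adjusted p = 2.34e-19) and was 8.41-fold higher in EGCG than in aged control (log2 fold change 3.07, SE 0.220, adjusted p = 4.68e-16). Its remaining 1.35-fold gap between EGCG and young control (log2 fold change -0.43, SE 0.163, adjusted p = 0.0189) had the largest adjusted p of the members' calls on the TMM scale. That call was lost without young control 1 (adjusted p = 0.1005), young control 3 (0.0641) or EGCG 2 (0.114).

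Pcp2, a modulator of Go proteins found in bipolar cells and in Purkinje cells of the cerebellum (chromosome 8, 3623371 to 3625545, minus strand), measured 33.6, 36.4 and 34.1 CPM in the young control libraries, 1.99, 3.44 and 1.63 CPM in the aged control libraries and 23.8, 24.5 and 22.1 CPM in the EGCG libraries. Its young, EGCG and aged libraries formed 3 separate levels in that order. Pcp2 fell 14.5-fold with age (log2 fold change -3.86, SE 0.163, adjusted p = 1.63e-25), and EGCG libraries were 9.82-fold above aged control (log2 fold change 3.30, SE 0.168, adjusted p = 1.59e-21) and 1.48-fold below young control (adjusted p = 6.76e-05). With Grm6, Pcp2 and Gng13 belong to the same pathway, yet they stood at 67.5% and 74.2% of their young levels in EGCG libraries where Grm6 stood at 16.5%.

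Prkca, the protein kinase C alpha used as a label of rod bipolar cells and active in many other cell types (chromosome 11, 107933387 to 108343928, minus strand), measured 115, 116 and 111 CPM in the young control libraries, 28.9, 36.3 and 32.2 CPM in the aged control libraries and 48.6, 45.9 and 53.4 CPM in the EGCG libraries. No groups overlapped, and the EGCG libraries were nearer to the aged than to the young ones. Prkca fell 3.51-fold with age (log2 fold change -1.81, SE 0.0776, adjusted p = 3.14e-25), was 1.52-fold higher with EGCG than in aged control (log2 fold change 0.60, SE 0.0814, adjusted p = 6.08e-08) and stayed 2.31-fold below young control (adjusted p = 5.16e-19).

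Cabp5, a calcium-binding protein of rod and cone bipolar cells (chromosome 7, 13398132 to 13408887, plus strand), measured 34.6, 37.1 and 34.6 CPM in the young control libraries, 15.4, 18.6 and 13.3 CPM in the aged control libraries and 24.5, 31.1 and 27.3 CPM in the EGCG libraries. All 3 groups were separate, with EGCG libraries closer to the young ones. Cabp5 fell 2.24-fold with age (log2 fold change -1.16, SE 0.115, adjusted p = 2.18e-12), close to the fall of Trpm1. With the gene length trend removed the values were -1.32 for Cabp5 and -0.73 for Trpm1, and the difference between these genes was not tested. It was 1.75-fold higher in EGCG than in aged control (log2 fold change 0.81, SE 0.118, adjusted p = 3.53e-07) and 1.28-fold lower than in young control (adjusted p = 0.00422).

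The calcium buffers of horizontal and amacrine cells were both lowest in aged control. Calb1 (calbindin, in horizontal cells and some amacrine cells, chromosome 4, 15881264 to 15908064, plus strand) measured 13.9, 16.0 and 12.8 CPM in the young control libraries, 0.894, 1.48 and 0.697 CPM in the aged control libraries and 4.25, 5.76 and 5.75 CPM in the EGCG libraries. The 3 groups were apart, and its aged control libraries held as few as 9 counts. Calb1 fell 13.6-fold with age (log2 fold change -3.77, SE 0.259, adjusted p = 1.39e-17) and was 5.03-fold higher with EGCG (log2 fold change 2.33, SE 0.280, adjusted p = 3.24e-09), at 36.8% of the young level. Calb2 (calretinin, in amacrine and ganglion cells, chromosome 8, 110137502 to 110168210, minus strand) measured 40.0, 38.6 and 39.6 CPM in the young control libraries, 3.71, 3.44 and 3.17 CPM in the aged control libraries and 34.2, 27.7 and 30.1 CPM in the EGCG libraries. Again the groups did not overlap, but the EGCG libraries of Calb2 came much nearer to the young ones. Calb2 fell 11.4-fold with age (log2 fold change -3.51, SE 0.135, adjusted p = 5.46e-27), was 8.87-fold higher with EGCG than in aged control (log2 fold change 3.15, SE 0.138, adjusted p = 4.91e-24), and lay 1.29-fold below young control (adjusted p = 0.00213).

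The ganglion cell genes differed from each other. Nefl (neurofilament light chain, a structural protein of axons, chromosome 14, 68083863 to 68089095, plus strand) measured 97.7, 94.1 and 94.8 CPM in the young control libraries, 7.29, 3.64 and 5.26 CPM in the aged control libraries and 44.4, 42.1 and 42.4 CPM in the EGCG libraries. The groups stood far apart, with EGCG at an intermediate level. Nefl fell 17.7-fold with age (log2 fold change -4.15, SE 0.117, adjusted p = 2.13e-32), was 7.96-fold higher with EGCG than in aged control (log2 fold change 2.99, SE 0.123, adjusted p = 3.52e-25) and stayed 2.22-fold below young control (adjusted p = 1.51e-15). Sncg (gamma-synuclein, abundant in ganglion cells and other neurons, chromosome 14, 34370274 to 34374789, minus strand) measured 10.9, 9.35 and 10.7 CPM in the young control libraries, 4.61, 5.93 and 6.35 CPM in the aged control libraries and 10.2, 13.2 and 10.3 CPM in the EGCG libraries. Its aged libraries were below the rest, whereas young and EGCG libraries overlapped. Sncg fell 1.84-fold with age (log2 fold change -0.88, SE 0.186, adjusted p = 5.39e-05; -1.36 with the gene length trend removed), and was 2-fold higher with EGCG (SE 0.187 on the log2 scale, adjusted p = 3.88e-05). Between EGCG and young control it differed by 0.12 on the log2 scale (95% interval -0.230 to 0.472, adjusted p = 0.557, edgeR), and no difference was detected.

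**Figure D2:**
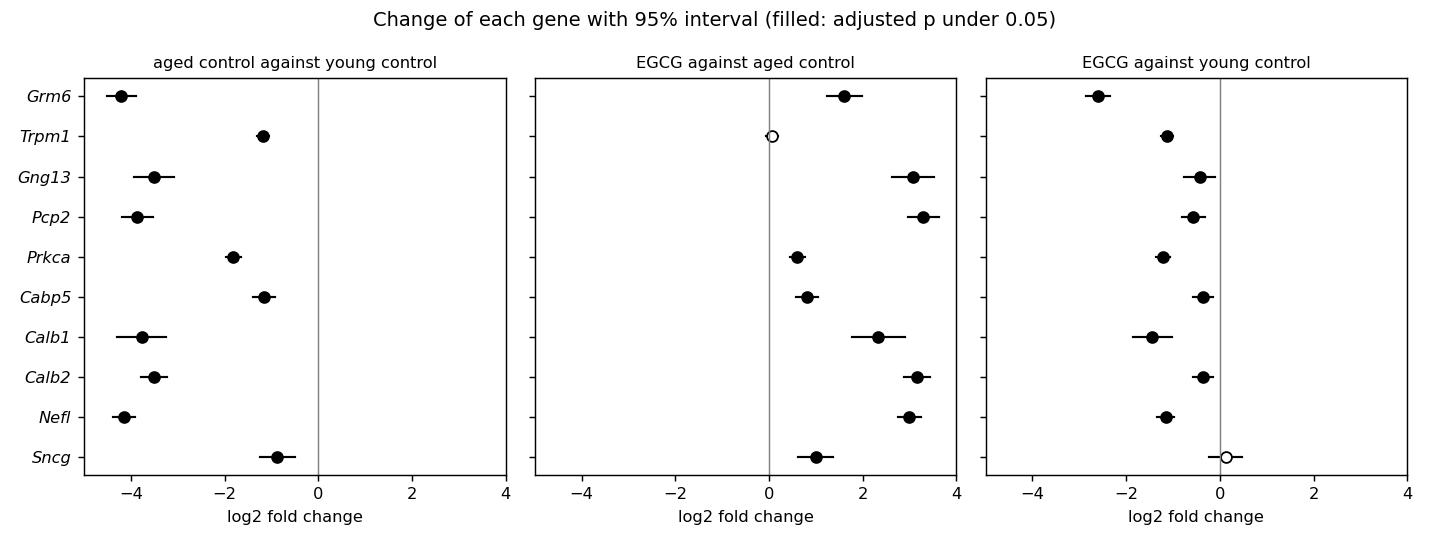
Log2 fold change of each gene (x axis) with its 95% interval in the 3 comparisons (panels), filled for adjusted p under 0.05, from the edgeR fit on TMM-scaled counts. Aged control against young control lies left of 0 for all 10 genes, EGCG against aged control lies right of 0 except for Trpm1, whose interval spans 0, and Sncg is the gene whose EGCG against young control interval spans 0.

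Relative to the rod genes the 10 fell either within the range of those genes or less. The 22 rod genes stood at 3.39% (Rp1) to 10.5% (Reep6) of their young level in aged control, with a median of 5.22%. Trpm1 (44.2%), Prkca (28.5%), Cabp5 (44.5%) and Sncg (54.6%) were above that whole range, and Grm6, Nefl, Pcp2, Calb1, Calb2 and Gng13 were inside it, at 5.45% to 8.82%. In EGCG libraries the rod genes ranged from 17.6% (Rp1) to 76.7% (Guca1a) of young, with a median of 43.8%. Sncg (109%), Cabp5 (78%) and Calb2 (77.8%) lay above this range and Grm6 (16.5%) below it.

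**Figure D3:**
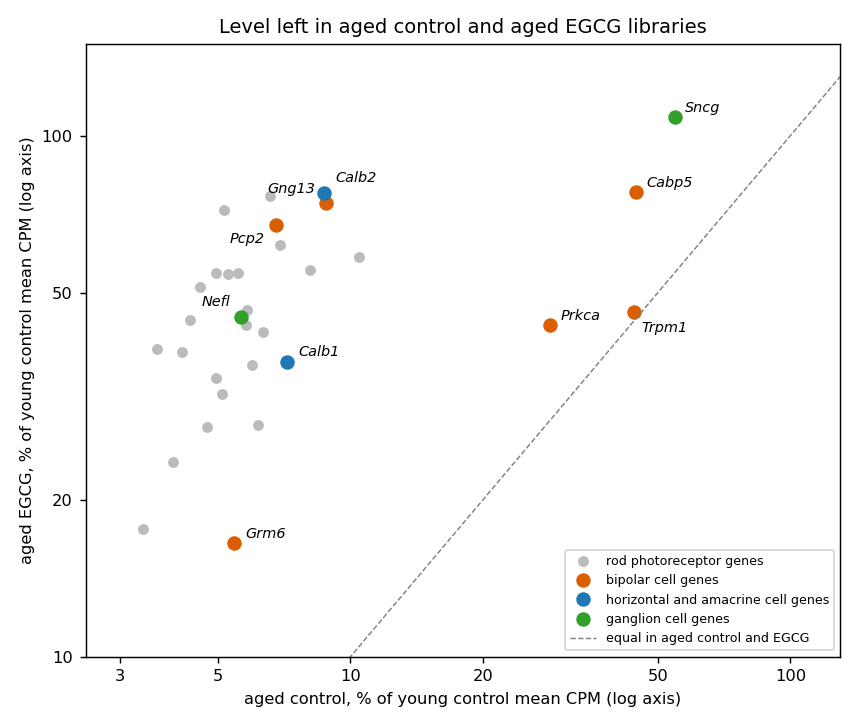
Mean level in aged control (x axis) and EGCG libraries (y axis), each as a percent of the young control mean on log axes, a point per gene for the 10 genes and the 22 rod genes; the dashed line marks equal values. In aged control Trpm1, Prkca, Cabp5 and Sncg stand above all rod genes; in EGCG libraries Grm6 stands below all of them and Sncg, Cabp5 and Calb2 above.

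To measure the changes against rod transcripts directly, the libraries were rescaled by the geometric mean of the 22 rod genes and fitted again with edgeR, a scale chosen after the data had been seen whose own error is not in the SEs. On this scale 95.1% of tested genes were called higher in aged than in young control, a scale on which nearly every gene that fell less than the rod genes counts as higher, and so were 6 of the 10 members. Cabp5 gained 3.06 (adjusted p = 9.66e-30), Trpm1 3.05 (adjusted p = 5.01e-42), Sncg 3.35 (adjusted p = 1.41e-22) and Prkca 2.42 (adjusted p = 7.45e-32) in log2 units, and Gng13 and Calb2 0.72 and 0.71. The first 4 lay outside the spread of the rod genes themselves, -0.65 (Rp1) to 0.97 (Reep6). For Grm6 (0.02, adjusted p = 0.929), Nefl (0.08), Pcp2 (0.36) and Calb1 (0.45) no difference from the rod scale was detected, but Pcp2 was called without aged control 1 (0.48) or aged control 3 (0.57). The Gng13 call (adjusted p = 0.00723) was lost without aged control 1 (0.43, adjusted p = 0.166) and with the gene length trend removed (0.24, adjusted p = 0.343).

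Between EGCG and aged control, where 96.1% of tested genes were called lower on the rod scale, 6 of 10 members were lower and none was higher, against 0.204% of tested genes called higher. Grm6 rose less than the rod genes, with a log2 difference of -1.38 (SE 0.210, adjusted p = 2.8e-08), outside the rod genes' own range of -0.81 (Rbp3) to 0.81 (Pde6g). Trpm1 (-2.94), Prkca (-2.39), Cabp5 (-2.19) and Sncg (-1.99) were likewise outside it. Calb1 was at the threshold (-0.65, adjusted p = 0.0499), and its call was lost in 13 of 18 alternatives, among them without any of the young control libraries, without aged control 2 (-0.26, adjusted p = 0.5001) or without EGCG 1 (-0.51, adjusted p = 0.1356). Gng13 (0.09), Pcp2 (0.31), Calb2 (0.16) and Nefl (0.00) moved with the rod genes within their errors. Of these, Pcp2 was called higher without aged control 2 (0.71, adjusted p = 0.00302). Against young control, 77.9% of tested genes were higher and 4.82% lower on the rod scale in EGCG libraries. Gng13, Pcp2, Cabp5, Calb2 and Sncg were higher, by 0.67 (Pcp2) to 1.36 (Sncg), and Grm6 was lower (-1.36, adjusted p = 1.15e-11). The rod genes' own range there was -1.27 (Rp1) to 0.85 (Guca1a), with 9 of them called higher and 9 lower. Pcp2 and Gng13 (0.80) lay inside this range. Cabp5 (0.88) and Calb2 (0.87) were just above it, Grm6 just below it and Sncg further above.

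Summed over the 6 bipolar genes, the level was 1.44% ± 0.0256 of the summed rod genes in young control (SD, n = 3 in each group), 7.45% ± 0.507 in aged control and 1.58% ± 0.0435 with EGCG. CPM are not corrected for length, so long genes weigh more in this sum. Without Trpm1, the highest of the 6 in mean CPM, the ratios were 0.920%, 3.47% and 1.03%, and without Prkca 1.02%, 5.39% and 1.16%. The summed ratio was highest in aged control with or without either gene. Leaving out either gene does not settle this, since the other and Cabp5, each highest in aged control, stay in the sum. Single genes differed. Trpm1 stood at 0.524%, 3.98% and 0.551% of the summed rod genes in young control, aged control and EGCG libraries, Prkca at 0.419%, 2.06% and 0.416% and Cabp5 at 0.130%, 1% and 0.233%. Grm6, by contrast, stood at 0.176%, 0.164% and 0.0667%, Gng13 at 0.0666%, 0.101% and 0.113% and Pcp2 at 0.128%, 0.150% and 0.198%, none of them highest in aged control.

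Levels can be set beside each other between genes only per length, on the deposited FPKM (fragments per kilobase of transcript, scaled by depth). In young control Pcp2 (46.9 ± 1.75 FPKM, SD, n = 3) and Gng13 (43.5 ± 4.66) were highest and overlapped, followed by Nefl (31.8) and Calb2 (30.6), which overlapped as well. Sncg, Prkca, Cabp5 and Trpm1 formed a run of overlapping neighbours from 15.9 to 14.4 FPKM, with Grm6 (9.02) and Calb1 (5.6) separate below. In aged control the order changed. Sncg (6.95 ± 1.28 FPKM), Cabp5 (5.18) and Trpm1 (5.10) led, each overlapping the next, and Prkca, Gng13, Pcp2 and Calb2 overlapped in turn from 3.48 to 2.14 FPKM. Nefl (1.44) stood alone above Grm6 (0.395) and Calb1 (0.321), which overlapped. With EGCG, Gng13 (28.2 ± 3.80 FPKM) and Pcp2 (27.7) led again and overlapped, then came Calb2 (20.8), Sncg (15.1), Nefl (12.5) and Cabp5 (9.93), each apart from the next. Trpm1 (5.78) and Prkca (5.77) overlapped, and Calb1 (1.80) and Grm6 (1.30) were lowest and separate.

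Other genes of the same cells moved in the same direction in most cases. Beside the counts of this and the next lists, 33.8% of all tested genes were called lower and 35.4% higher with age. For EGCG against aged control 13.8% were called higher and 10.3% lower, and for EGCG against young control 31.4% were called lower. The list of ON bipolar cascade partners held 16 genes, mostly of G protein subunits, RGS proteins, calcium channel subunits and synaptic organisers. Of these, 14 fell with age, 1 rose and 1 was not called, with a median log2 fold change of -3.25. Cacna1f, the calcium channel of photoreceptor and bipolar terminals, fell 31.0-fold, Rgs9bp, an anchor of RGS proteins that end G protein signals, 23.2-fold, and Gnb3, the G protein beta subunit of ON bipolar cells and cones, 11.4-fold. Pkd2l1, a listed cation channel gene outside the kinds named above, rose 4.45-fold. With EGCG 12 of the 16 were above aged control and none below (median 1.67), Gnb3 by 5.62-fold, Cacna1f by 5.71-fold and Rgs9bp by 4.61-fold. Rods and cones also express several of these genes, Cacna1f and Gnb5 among them.

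Of 32 other bipolar cell genes, 30 fell with age and 2 rose (median -3.33). Otx2, a transcription factor of photoreceptors and bipolar cells, fell 9.37-fold, and Cplx3, a complexin of ribbon synapses and amacrine cells, 12.2-fold. Nnat, an imprinted gene of neural and endocrine cells, and Ablim1, an actin-binding protein of many tissues, rose 1.58-fold and 1.23-fold, the latter not when library size alone or the lens fibre markers set the scale. In EGCG libraries 22 of 32 were higher than in aged control and 1 was lower (median 1.81). Cplx3 rose 8.27-fold and Lrtm1, named as a bipolar marker, 4.51-fold.

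Amacrine and ganglion cell lists gave like counts. Of 23 amacrine genes tested 21 fell with age (median -3.48), among them Gad1, which makes GABA, 13.9-fold. Penk, which encodes the enkephalin precursor, rose 2.31-fold. With EGCG 16 of the 23 were higher and 2 lower than in aged control (median 2.07), with Gad1 5.84-fold higher and Penk 1.99-fold lower. Of 21 ganglion cell genes tested 17 fell with age (median -2.97), Nefh, the heavy neurofilament, 17.8-fold and Thy1, a surface glycoprotein of ganglion cells, 7.15-fold. Uchl1, a deubiquitinase of neurons, rose 2.32-fold. EGCG libraries were above aged control for 16 of the 21 (median 2.27), with Tubb3, a neuronal tubulin, 6.64-fold higher. Cplx3 stands in the bipolar and the amacrine list, and Tfap2b in the amacrine and the horizontal one. Against young control, EGCG libraries were lower for 14 of 16 cascade partners (median -1.63), 25 of 32 other bipolar genes (median -1.27), 18 of 23 amacrine genes (median -1.02) and 12 of 21 ganglion cell genes (median -0.88).

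Horizontal cell genes were mixed. Of 9 tested, 6 fell and 3 rose with age (median -1.09), and 5 were higher with EGCG than in aged control (median 0.45). Tfap2b, a transcription factor of horizontal and amacrine cells, fell 15.1-fold. The 3 that rose, Ndrg1 (1.89-fold), Tpm3 and Calm2, are expressed in most tissues, and only Ndrg1 stayed higher when the lens fibre markers or library size alone set the scale. Pan-neuronal genes, by contrast, fell in 9 of 9 tested and rose with EGCG in 9 of 9. Their summed level was 839 to 861 CPM in young, 68.9 to 76.8 CPM in aged and 301 to 306 CPM in EGCG libraries. The ganglion cell list summed to 431 to 435, 484 to 537 and 516 to 524 CPM in the same order of groups. The horizontal cell list summed to 1062 to 1082, 1631 to 1670 and 1567 to 1579 CPM. Both sums thus rose with age while most genes of the lists fell. The sums of the cascade, other bipolar and amacrine lists were lowest in aged control. The rod list gave 23 of 23 lower with age (median -4.24) and 23 of 23 higher with EGCG (median 2.90).

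**Figure D4:**
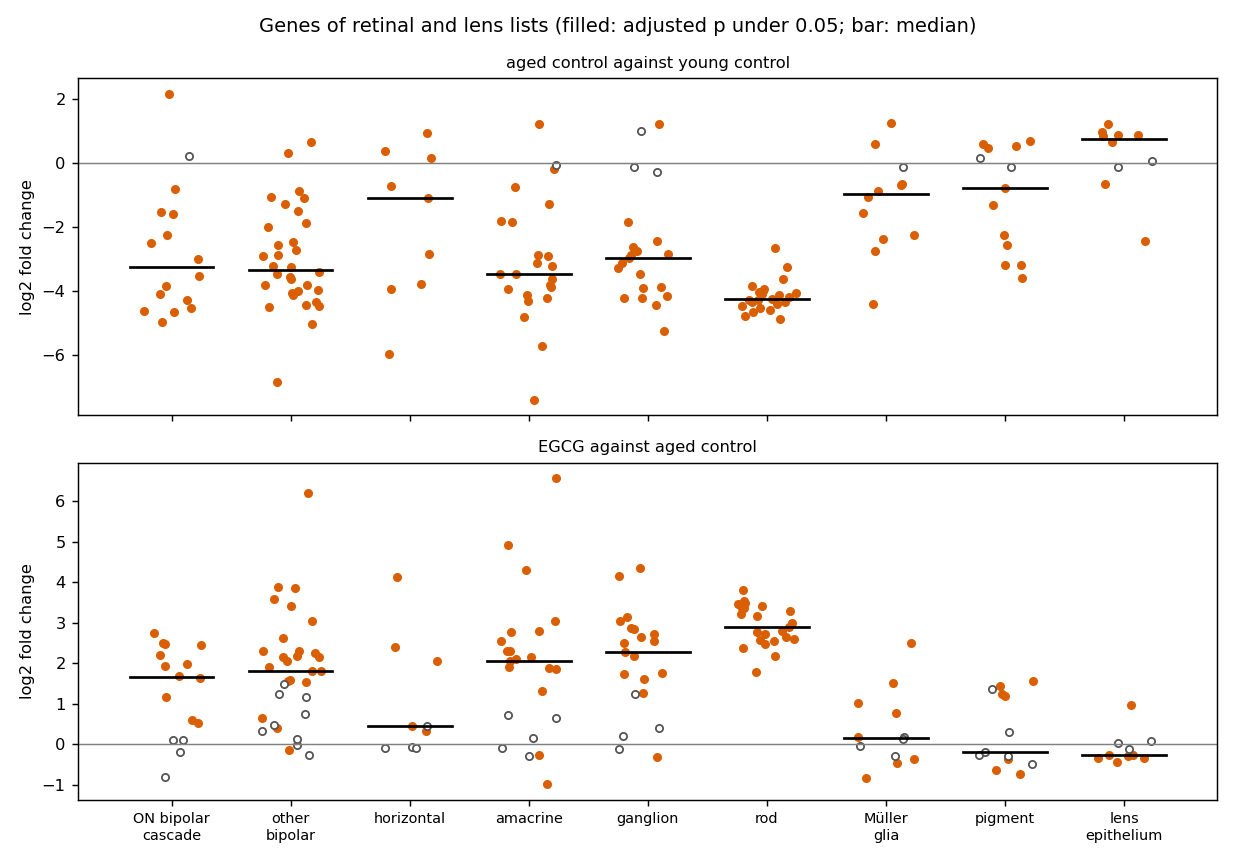
Log2 fold change of each tested gene (y axis) in 9 gene lists (x axis), for aged against young control above and EGCG against aged control below, with filled points for adjusted p under 0.05, open points for the rest and a bar at the list's median. Most genes of the retinal neuron lists were lower with age and higher with EGCG; the pigment cell and lens epithelium lists were mixed.

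Transcript length moved with the EGCG changes. Among the 10 genes, the length that the deposited counts and FPKM imply ran from 0.468 kb (Gng13) to 11.1 kb (Trpm1). Spearman's rank correlation between length and log2 fold change was -0.164 for aged against young control, -0.636 for EGCG against aged control and -0.673 for EGCG against young control. These describe 10 genes measured in the same libraries. For the 22 rod genes the correlation was -0.187, -0.673 and -0.705, and for all 13711 tested genes -0.329, 0.110 and -0.358. The genes nearest to young control in EGCG libraries, Sncg (0.732 kb), Gng13, Calb2 (1.45 kb) and Pcp2 (0.834 kb), were short, with Cabp5 (2.74 kb) an exception, and Grm6 (5.97 kb), Prkca (8.42 kb) and Trpm1 long. With a length trend over all genes taken out of each library, the counts of members called in each comparison were as before. Single values moved: for EGCG against young control Trpm1 stood at -0.70 in place of -1.12, Gng13 at -0.76 in place of -0.43 and Grm6 at -2.42 in place of -2.60. Pcp2 stood at -0.92 in place of -0.57, Calb2 at -0.69 in place of -0.36 and Prkca at -0.89 in place of -1.21. All of these were called by edgeR. Trpm1 was then nearer to young control than Gng13 and Pcp2, so the order by length given above did not hold. Differences between these genes were not tested. For EGCG against aged control the correlation over all genes (0.110) had the opposite sign to that of the members (-0.636). The same correction could therefore not take out the relation among the members. It left Trpm1 at 0.03 (adjusted p = 0.7929) and Grm6 at 1.58. The part of length in these differences was not tested further.

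**Figure D5:**
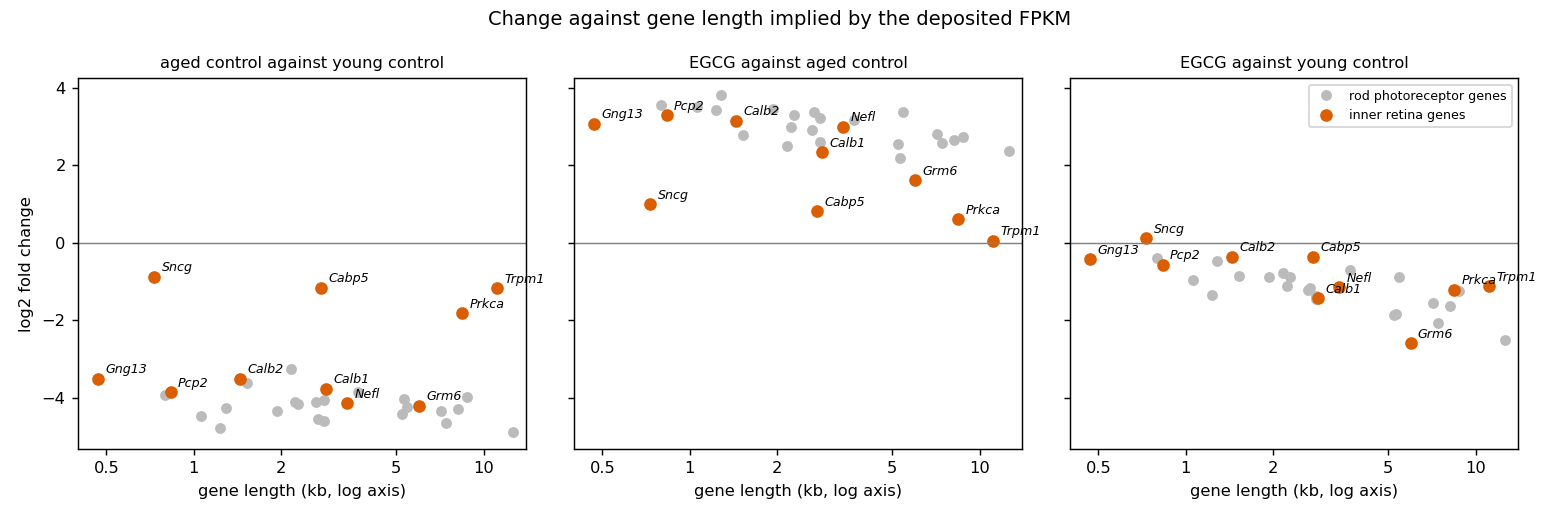
Log2 fold change (y axis) against the gene length implied by the deposited FPKM (x axis, kb, log axis) for the 10 genes and the 22 rod genes, a panel per comparison. In both EGCG comparisons Gng13, Pcp2 and Calb2 on the short side lie above Grm6, Prkca and Trpm1 on the long side, with Sncg and Cabp5 low for their length against aged control; aged against young control shows little slope.

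Exons annotated in GENCODE M21 for 3 members overlap a tested gene on the opposite strand, and whether counting used strand is not stated in the labels. The shared bases below are over the exons of all annotated transcripts, and the overlap in the gene models that were counted is not known. Pcp2 shares 941 exon bases with Pet100, a mitochondrial assembly factor, which is more than the 834 bases that the deposited counts and FPKM imply for Pcp2. Pet100 changed by -0.07 with age and by -0.31 with EGCG against aged control, neither called by edgeR, and was called lower in EGCG than in young control (-0.38, adjusted p = 0.0393), as Pcp2 was. Gng13 shares 399 bases with Chtf18, a replication factor at 2.15 to 2.53 CPM in group means that was not called in any comparison. Nefl shares 1108 annotated exon bases with Nefm, the medium neurofilament, which moved as Nefl did (-3.13 with age, 2.18 with EGCG), so that reads in the shared stretch could belong to either gene.

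The genes whose profile over the 9 libraries was most like that of each member were found by Pearson's r of log2(CPM + 1) among 10512 other genes with a mean of at least 5 CPM. With 3 groups this far apart a high r is common, and it describes these libraries only. For Grm6 the nearest were Scn8a (r = 0.9993), Usp33 (r = 0.9983) and Rpgrip1 (r = 0.9978), and for Trpm1 Speg (r = 0.9993), Cryga (r = 0.9987) and Kdm5c (r = 0.9984). Such an r compares the shape of a profile and not the size of its changes: the gamma-crystallin Cryga measured 78.1 CPM in young control on average and was below the limit of 3 counts in aged control, where Trpm1 stood at 62.8 CPM. Nearest to Pcp2 was Stmn3 (r = 0.9982), to Gng13 Smim40 (r = 0.9938), to Calb2 Cplx3 (r = 0.9985), to Nefl Cabp4 (r = 0.9965) and to Cabp5 C1ql1 (r = 0.9915). Genes closest to Gng13 included Sag and Guca1a, and those closest to Calb2 Pde6g and Guca1a, all of them photoreceptor genes. Calb1 was most like Enox1 (r = 0.9963), then Gad2 (r = 0.9951), a GABA-making enzyme of amacrine cells. Prkca lay closest to Sh2d5 (r = 0.9984), and the summed bipolar genes to Mdm1 (r = 0.9993). Sncg had the lowest best value, Supt6 (r = 0.9682).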

How the data were processed

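RNA from mouse anterior lens capsule was sequenced in 9 libraries, made with a SMARTER kit per the labels' protocols. The authors deposited a table of counts per gene and of FPKM per gene for each library, built on GRCm38 (mm10) per the submitters' processing notes; the aligner, the counter and the use of strand are not stated there. No column was left unused (0). Genes were tested with edgeR 4.0.16 in R 4.3.3: TMM scaling, filterByExpr (13711 of 17527 genes; 17316 had a count), quasi-likelihood fit of 3 group means over 9 libraries, two-sided, Benjamini-Hochberg adjustment over all tested genes, called at adjusted p under 0.05. The biological coefficient of variation was 7.9%. Standard errors were taken from the F statistic. The fitting script was tested on simulated data. FPKM values served to order genes by level, to derive gene lengths together with the counts and, as log2(FPKM + 1) and log2(FPKM + 0.1), in limma 3.58.1.

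The rule for named genes took all 10 members, up to 4 called genes per list, direction and comparison by smallest p, and the 3 genes with the most similar profile per member. The members and lists were chosen with earlier results of these data known. Alternatives were library size only, DESeq2 1.42.0 size factors and test, a lens fibre scale (15 genes), other count filters, only the groups compared, a replicate block and leaving out each library. The rod scale (22 genes, without Gnb1) and the gene length correction were added after seeing the data. Gene lengths were derived from the deposited counts and FPKM; coordinates and exon overlaps came from GENCODE M21 and promoters from RefSeq GRCm38.p6. Sequencing depth limits Calb1 and Gng13 most, at 9 to 31 counts in aged control libraries.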

Additional observations from a re-analysis of the deposited data

How the results depend on the processing

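The counts of members called on the TMM scale were within 1.5 times of the reported ones in 120 of 120 alternative values. Of the single-gene values, 595 of 600 kept their side of the threshold, and no called value changed direction. A change of direction between values not called was counted as kept. The 5 others are those of Trpm1 and Gng13 given with those genes. With the gene length trend removed, Sncg in EGCG against young control turned to -0.23 (adjusted p = 0.2637), not called in either case. When single libraries were left out its lowest value was -0.007, also not called. On the rod scale 106 of 108 counts and 519 of 540 single-gene values held. The members called higher in EGCG than in aged control on that scale, 0 as reported, became 1 with the gene length trend removed (Pcp2, 0.45) and ranged from 0 to 1 when single libraries were left out. Trpm1 (0.45) and Prkca (0.29) were called higher in EGCG than in young control with the gene length trend removed. The cause of these changes was not tested. The bipolar genes as a percentage of rod genes, in young control, aged control and EGCG libraries, were 1.02, 5.39 and 1.16 without Prkca and 0.920, 3.47 and 1.03 without Trpm1.

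Same-numbered libraries did not deviate together (r from -0.00545 to 0.0361 over 9 pairs, 2 of 9 libraries most like their own number). A small shared effect could be missed this way, so whether the numbers pair the samples is not known. With a replicate block the fall with age still counted 10 of 10 members, the difference between EGCG and aged control 9 higher and that between EGCG and young control 9 lower; on the rod scale Calb1 was no longer called (adjusted p = 0.05687).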
